A study of Macaca fascicularis with 7 samples.

Results

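The transcripts of 9 genes were followed through oocyte maturation in the cynomolgus monkey (Macaca fascicularis). They were the Aurora kinases AURKA, AURKB and AURKC, the Aurora A activator TPX2, the passenger complex subunits INCENP, BIRC5 and CDCA8, and the polo kinases PLK1 and PLK4. Each gene was taken by its symbol and matched 1 of 28161 gene rows in the deposited count table. Messenger RNA had been measured in 7 libraries of wild type oocytes. Metaphase II (MII) oocytes matured in culture (in vitro matured, IVM MII, labelled as treated) gave 3 libraries. MII oocytes that matured in vivo (IVO MII, inside the animal, labelled as control) gave 2, and oocytes still at the germinal vesicle stage before meiosis resumes (GV, labelled as control) also gave 2. The sources used here give neither the number of oocytes in a library nor the animals or their age, so every p-value speaks of the scatter among these libraries alone, part or all of which may be technical.

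Aurora and polo kinases drive the meiotic divisions. Aurora A, once bound by TPX2, builds and focuses the spindle at its poles, and it is also the kinase that switches on PLK1. Aurora B, or in germ cells Aurora C, joins INCENP, survivin (BIRC5) and borealin (CDCA8) in the chromosomal passenger complex, which corrects faulty kinetochore attachments and later directs cytokinesis. PLK4 starts centriole duplication, although mammalian oocytes build their spindles without centrioles and live on stored messenger RNA that is used and destroyed as meiosis proceeds.

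Library totals lay between 22901970 and 29245733 counts. Levels are given as CPM, counts scaled to a common library size that was adjusted by TMM, a method that equalises the bulk of genes. The scaling factors were 0.766 to 0.985 in the 5 MII libraries and 1.38 to 1.42 in the GV libraries. Such levels are relative to the other messages of a library. Words such as rose and fell below describe relative levels, and the counts do not give the amount of a message per oocyte. By the labels, GV libraries sit in one sequencing folder and all MII libraries in another, so folder and stage cannot be told apart wherever GV is compared. All 12 oocyte markers were present, with a summed level of 8983 to 18079 CPM in IVM MII, 8771 to 10728 CPM in IVO MII and 12083 to 14334 CPM in GV oocytes. Of 14 cumulus and granulosa markers 11 were matched and 8 of these stayed under 1 CPM in every library (AMH and PTX3 at 0), yet their sum was 97.2 to 217 CPM in IVM MII and 60.2 to 92.3 CPM in IVO MII, against 17.8 to 19.4 CPM in GV. That sum was nearly all FSHR, HAS2 and TNFAIP6, genes of cumulus cells, with TNFAIP6 at 107 ± 47.3 CPM in IVM MII, 32.2 ± 19.7 CPM in IVO MII and 10.5 ± 4.68 CPM in GV. The 9 stromal and endothelial markers, of which 5 stayed under 1 CPM in every library (COL3A1 and LUM at 0), summed to 60.8 to 89.8 CPM in IVM MII and 88.5 to 127 CPM in IVO MII, against 1081 to 1212 CPM in GV. VWF alone, an endothelial gene, gave 37.6 to 46.4 CPM in IVM MII and 45.0 to 52.0 CPM in IVO MII, against 991 and 1140 CPM in GV, whereas the endothelial marker PECAM1 averaged 16.8 CPM in IVM MII, 15.7 CPM in IVO MII and 12.8 CPM in GV. For blood cells 7 of 8 markers were matched and 6 stayed under 1 CPM in every library (CD14 and LYZ at 0); the sums were 0.161 to 3.08 CPM in IVM MII, 1.58 to 2.39 CPM in IVO MII and 25.1 to 33.2 CPM in GV, nearly all of it CSF1R, at 32.9 and 24.8 CPM in GV. The part of these marker differences in the results below was not tested.

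Across the 9 genes, levels can be set against each other only after division by exon length, as CPM per kb of the exons the table lists. On that scale AURKA stood first in all 3 groups, at 1568 ± 353 CPM per kb in IVM MII (SD, n = 3), 1937 ± 200.1 in IVO MII (SD, n = 2) and 1065 ± 127 in GV oocytes (SD, n = 2). It ranked between 19 and 33 among all genes by CPM in the IVM MII libraries, at 26 and 21 in IVO MII, and at 10 and 16 in GV, which makes a spindle kinase transcript one of the most abundant messages of these cells. Its share of all counts was 0.254% to 0.435% in IVM MII, 0.362% to 0.496% in IVO MII and 0.326% to 0.398% in GV.

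The order of the remaining genes differed between stages. In IVM MII, AURKC followed at 225 ± 19.8 CPM per kb, then TPX2 at 78.8 ± 12.9 and CDCA8 at 75.6 ± 45.7 (SD, n = 3), and TPX2 and CDCA8 overlapped. INCENP (15.0 ± 11.6), BIRC5 (7.66 ± 1.84), PLK1 (7.55 ± 6.73), AURKB (4.24 ± 1.29) and PLK4 (3.89 ± 2.35) came last in IVM MII, and each overlapped its neighbour. The MII oocytes matured in the animal had the same genes on top on the per kb scale, with AURKC at 201 ± 31.6, CDCA8 at 103 ± 31.2 and TPX2 at 72.0 ± 4.38 (SD, n = 2). PLK1 (23.5 ± 22.4), INCENP (21.3 ± 15.8), BIRC5 (13.5 ± 13.7) and AURKB (7.03 ± 0.226) then overlapped in IVO MII, and PLK4 stood below them at 0.807 ± 0.0773. In GV oocytes BIRC5 came directly after AURKA, at 151 ± 26.9 CPM per kb, overlapping AURKC at 140.4 ± 15.7 (SD, n = 2). PLK1 followed at 69.5 ± 23.4, then CDCA8 at 45.8 ± 5.63, AURKB at 41.1 ± 8.24 and TPX2 at 37.0 ± 3.05, which overlapped in turn. INCENP, the scaffold of the passenger complex, was at 11.8 ± 3.18 and PLK4 at 2.32 ± 0.738 in GV.

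**Figure D1:**
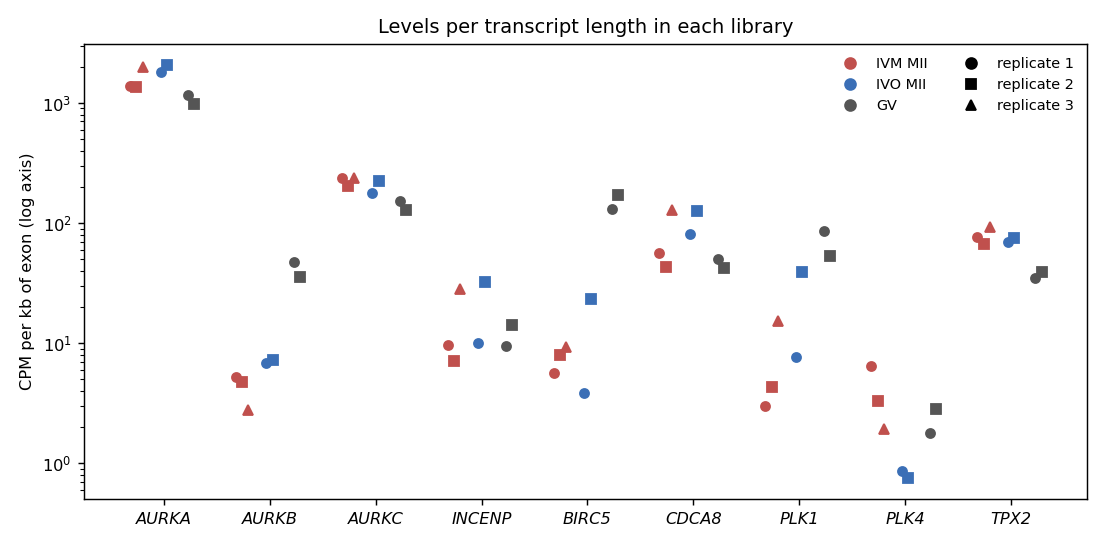
Level of each gene in each library as CPM per kb of exon (log axis), with IVM MII left of IVO MII and GV for each gene and the marker shape giving the replicate. AURKA lies between 975 and 2079 CPM per kb in every library, while BIRC5 lies between 132 and 170 CPM per kb in GV and at or below 23.2 in MII oocytes.

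Of the 3 Aurora kinase transcripts, AURKB fell in both MII groups relative to GV, while AURKA and AURKC passed the test in no comparison. AURKB messenger RNA was at 7.78, 7.06 and 4.14 CPM in the IVM MII libraries and at 10.2 and 10.7 CPM in IVO MII, against 70.0 and 52.7 CPM in GV. Every MII library therefore had less of the passenger complex kinase AURKB than either GV library, and no group overlapped another. It fell by 3.28 on the log2 scale in IVM MII relative to GV (SE 0.41, adjusted p = 0.00155, edgeR quasi-likelihood test with Benjamini-Hochberg adjustment over all genes) and by 2.55 in IVO MII relative to GV (SE 0.46, adjusted p = 0.00558). Without the first GV library the IVO MII call was lost (log2 change -2.35, adjusted p = 0.0543). IVM MII and IVO MII averaged 6.32 ± 1.93 CPM (SD, n = 3) and 10.5 ± 0.337 CPM (SD, n = 2), and that difference did not pass the test (log2 change -0.73, SE 0.40, adjusted p = 0.329). If a library holds more than 1 oocyte, fewer cells carrying a transcript and less of it in each cell cannot be told apart.

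AURKC, the Aurora kinase that in mouse and human is largely confined to germ cells, was at 469, 401 and 468 CPM in IVM MII, at 353 and 441 CPM in IVO MII, and at 299.9 and 256 CPM in GV. All 5 MII libraries lay above both GV libraries, but neither difference passed the test. The log2 difference was 0.68 in IVM MII over GV (SE 0.28, adjusted p = 0.0887) and 0.51 in IVO MII over GV (SE 0.30, adjusted p = 0.233), and with library totals in place of TMM scaling these differences were -0.04 and -0.10. AURKA was at 3317, 3291 and 4784 CPM in IVM MII, 4350 and 5035 CPM in IVO MII and 2796 and 2362 CPM in GV. Here too the MII libraries were all higher than the GV libraries without passing, at a log2 difference of 0.56 in IVM MII (SE 0.31, adjusted p = 0.187, or -0.15 with library totals) and 0.86 in IVO MII (SE 0.34, adjusted p = 0.0851, or 0.25 with library totals). With limma voom the IVO MII difference of AURKA passed (0.87, adjusted p = 0.0360).

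Within a library, the balance of the Aurora transcripts does not depend on the scaling. The AURKC to AURKB ratio per kb was 45.4, 42.8 and 85.2 in IVM MII, 25.9 and 31.0 in IVO MII, and 3.23 and 3.66 in GV. In words, both stages held more AURKC than AURKB, with a far wider gap in every MII library and the widest gaps in the IVM MII libraries. This ratio contains AURKB, whose fall is given above, and is not a separate result. AURKB made up 0.125% to 0.324% of the summed Aurora transcript level per kb in IVM MII, 0.311% and 0.347% in IVO MII, and 3.47% and 3.10% in GV. AURKA took 85.0% to 89.2% of that sum in IVM MII, 90.7% and 90.0% in IVO MII, and 85.3% and 85.6% in GV. AURKB and AURKC are close relatives in sequence, and the treatment of reads matching several places is not stated in those sources, so the split of reads between these kinases is uncertain.

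TPX2 encodes the spindle protein that binds Aurora A and keeps it active. It was at 350.4, 306 and 423 CPM in IVM MII, 314 and 343 CPM in IVO MII, and 159 and 179 CPM in GV. Both MII groups were above GV in every library and overlapped each other. TPX2 rose by 1.09 on the log2 scale in IVM MII over GV (SE 0.29, adjusted p = 0.0200 by edgeR) and by 0.96 in IVO MII over GV (SE 0.31, adjusted p = 0.0486). The IVM MII call was lost without IVM MII replicate 1 (adjusted p = 0.0515), GV replicate 1 (0.197) or GV replicate 2 (0.132), and with library totals (log2 change 0.38, adjusted p = 0.328). The IVO MII call was lost in 6 of 7 fits without 1 library (adjusted p 0.0642 to 0.307), the exception being the fit without IVM MII replicate 3, and with RLE size factors (0.0699), with no filter on low counts (0.0855) and with library totals (0.444). Per kb, AURKA exceeded its activator 17.8, 20.3 and 21.3 times in IVM MII, 26.1 and 27.7 times in IVO MII, and 33.1 and 24.9 times in GV.

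Of the passenger complex subunits, BIRC5 had the largest change between stages. This gene encodes survivin, which guides the complex to centromeres. BIRC5 messenger RNA was at 13.3, 18.8 and 21.7 CPM in IVM MII and at 9.02 and 54.3 CPM in IVO MII, against 309 and 398 CPM in GV. All MII libraries were far below both GV libraries, and the IVO MII libraries stood on either side of the IVM MII ones. BIRC5 fell by 4.30 on the log2 scale in IVM MII relative to GV (SE 0.66, adjusted p = 0.00235). It fell by 3.48 in IVO MII (SE 0.75, adjusted p = 0.0105). Mean levels in MII were 19.7 times lower for IVM and 11.2 times lower for IVO than in GV. Both calls were kept when any 1 library was left out, although leaving out IVO MII replicate 2 gave an IVO MII change of -5.30, and leaving out replicate 1 gave -2.71. For BIRC5 in IVM MII over IVO MII, the log2 difference of -0.82 (SE 0.61, adjusted p = 0.473) was 0.91 without IVO MII replicate 2.

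INCENP, which holds the kinase, and CDCA8, which pairs with survivin at the centromere, passed the test in no comparison. INCENP was at 30.1, 22.1 and 88.2 CPM in IVM MII, 31.5 and 101 CPM in IVO MII, and 29.8 and 43.9 CPM in GV. The GV values overlapped the range of both MII groups, with adjusted p values of 0.418 to 0.716 over the 3 comparisons. CDCA8 was at 138, 105 and 314 CPM in IVM MII, 198 and 307 CPM in IVO MII, and 122 and 103 CPM in GV. Both IVO MII libraries exceeded GV (log2 difference 1.16, SE 0.53, adjusted p = 0.128), while IVM MII overlapped GV (log2 difference 0.72, SE 0.48, adjusted p = 0.271; 0.074 without IVM MII replicate 3). Without IVM MII replicate 3 the IVO MII difference of CDCA8 passed (1.14, adjusted p = 0.0324).

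Inside each library, the transcript ratios of survivin to its partners in the complex separated MII from GV. BIRC5 over INCENP per kb was 0.587, 1.14 and 0.328 in IVM MII, 0.381 and 0.714 in IVO MII, and 13.8 and 12.1 in GV. CDCA8 over BIRC5 was 9.91, 5.33 and 13.8 in IVM MII, 20.9 and 5.38 in IVO MII, and 0.378 and 0.246 in GV. Survivin messenger RNA was thus above that of borealin in GV and below it in all MII libraries. Both ratios contain BIRC5, so they restate its fall and are not a separate result. Of all tested genes taken singly, 72.8% did not overlap between IVO MII and GV and 69.1% between IVM MII and GV. The ratio of CDCA8 to INCENP, 4.52 to 6.06 in IVM MII, 7.98 and 3.84 in IVO MII and 5.21 and 2.98 in GV, overlapped between all groups.

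**Figure D2:**
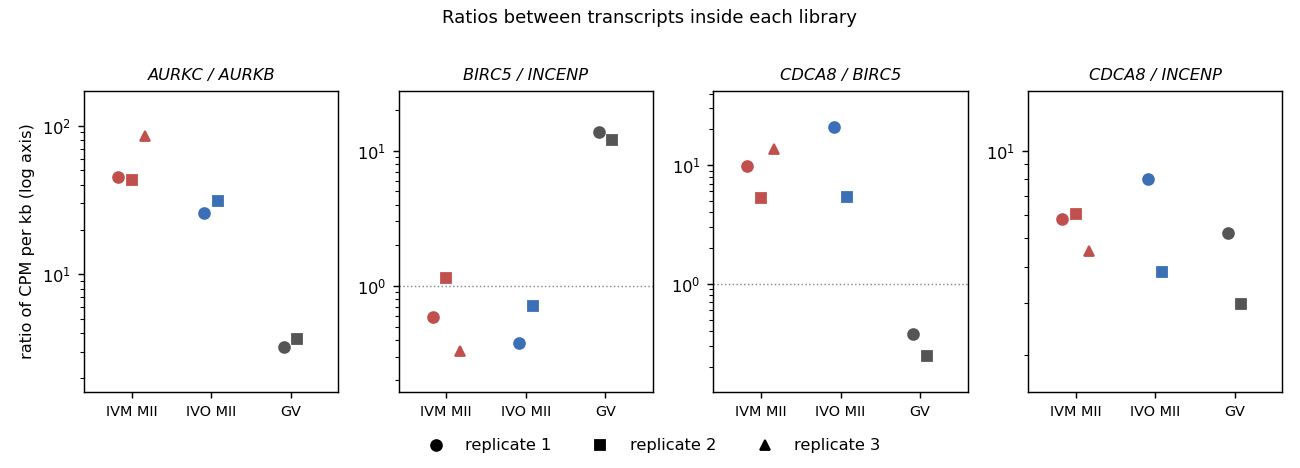
Ratios of CPM per kb between pairs of transcripts inside each library (log axes), with IVM MII, IVO MII and GV from left to right. The AURKC to AURKB ratio is 25.9 or more in MII libraries and at most 3.66 in GV, the CDCA8 to BIRC5 ratio is above 1 in MII and below 1 in GV, and the CDCA8 to INCENP ratio overlaps between the groups.

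PLK1, the polo kinase that acts at entry into division, on kinetochores and on the spindle, was at 6.60, 9.51 and 33.4 CPM in IVM MII, at 16.8 and 86.0 CPM in IVO MII, and at 188 and 116 CPM in GV. Both MII groups were below GV in every library, but the highest library was 5.06 times the lowest in IVM MII and 5.11 times in IVO MII. PLK1 fell by 3.20 on the log2 scale in IVM MII relative to GV (SE 0.82, adjusted p = 0.0167). That call was lost without IVM MII replicate 1 (adjusted p = 0.0510), IVM MII replicate 2 (0.0587) or GV replicate 1 (0.0731), and the change was -4.27 without IVM MII replicate 3. In IVO MII the log2 difference from GV was -1.56 (SE 0.90, adjusted p = 0.220), and leaving out IVO MII replicate 2 or 1 gave -3.19 or -0.83. The PLK1 values of IVM MII and IVO MII overlapped each other (log2 difference -1.64, SE 0.79, adjusted p = 0.272), and that difference was -0.10 without IVO MII replicate 2 and -2.69 without IVM MII replicate 3. The listed span of PLK1 overlaps those of WIPI2, CHMP3 and C13H2orf42 on the same strand and of LOC102140799. Its exons share 58 bases with LOC102140799.

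PLK4, the kinase of centriole duplication, had its largest difference between the MII groups. It was at 24.9, 12.6 and 7.37 CPM in IVM MII, 3.31 and 2.89 CPM in IVO MII, and 6.90 and 10.9 CPM in GV. All IVM MII libraries were above both IVO MII libraries, while the GV libraries overlapped IVM MII and lay above IVO MII. Mean PLK4 was 15.0 ± 9.03 CPM in IVM MII (SD, n = 3) and 3.10 ± 0.297 CPM in IVO MII (SD, n = 2), a log2 difference of 2.27 that did not pass (SE 0.64, adjusted p = 0.101; unadjusted p = 0.00642). It passed with DESeq2 (2.25, adjusted p = 0.00722) and without IVM MII replicate 3, the IVM MII library with the lowest value (2.58, adjusted p = 0.0391). Relative to GV the log2 difference of PLK4 was 0.75 in IVM MII (SE 0.59, adjusted p = 0.348; 0.15 without IVM MII replicate 1) and -1.52 in IVO MII (SE 0.65, adjusted p = 0.112). PLK1 over PLK4 per kb ran from 0.465 to 7.97 in IVM MII, against 8.93 and 52.3 in IVO MII, and 48.0 and 18.7 in GV.

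**Figure D3:**
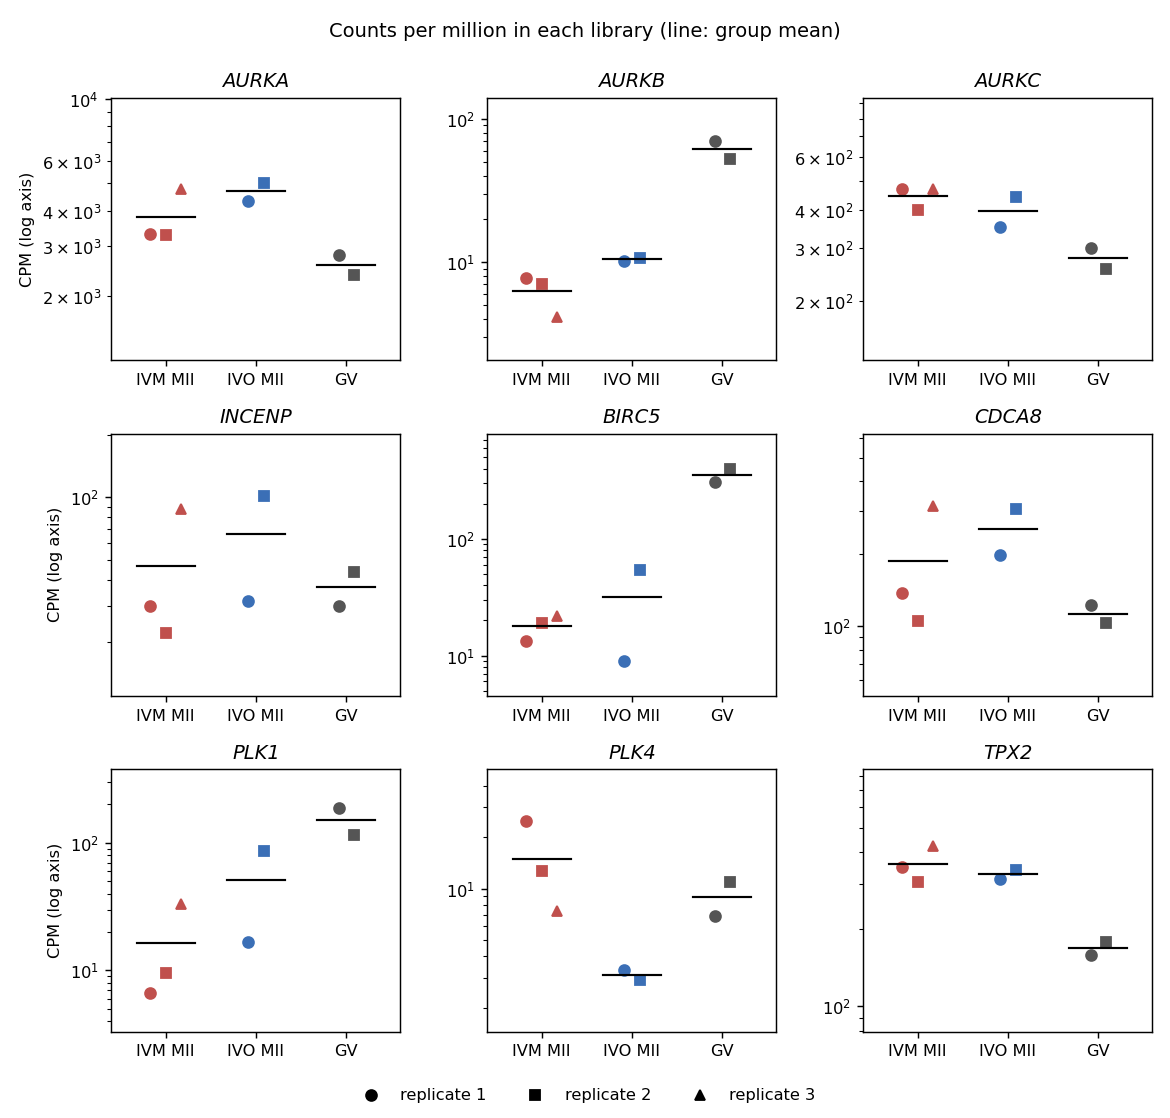
CPM of each of the 9 genes in each library (log axes that differ between panels), with IVM MII, IVO MII and GV from left to right and a line at the group mean. AURKB, BIRC5 and PLK1 lie lower in all MII libraries than in GV, and AURKA, AURKC and TPX2 lie higher, though AURKA and AURKC passed in no comparison by edgeR. AURKB and PLK4 do not overlap between IVM MII and IVO MII, and neither passed there by edgeR. The share of all tested genes without overlap was 33.8% between IVM MII and IVO MII. It was 72.8% between IVO MII and GV and 69.1% between IVM MII and GV.

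All 9 genes passed the filter on low counts, as did 16374 genes in all. Between IVM MII and IVO MII, edgeR called 0 of the 9 at an adjusted p under 0.05, against 1.47% of all tested genes (0.892% higher and 0.58% lower), and PLK4 was the 1 gene under an unadjusted p of 0.05. DESeq2 called 1 of the 9, again PLK4, and limma voom called 0, beside 2027 and 497 genes in all. For AURKA, AURKC, INCENP, CDCA8 and TPX2 the adjusted p between the MII groups was at most 0.834 and missed the threshold in each case. AURKB and PLK4 were the 2 whose IVM MII and IVO MII libraries did not overlap, beside 33.8% of all genes. Between IVO MII and GV 3 of the 9 were called (AURKB and BIRC5 lower, TPX2 higher), against 28.1% of all genes, and 8 did not overlap, against 72.8%. Between IVM MII and GV 4 were called (AURKB, BIRC5 and PLK1 lower, TPX2 higher), against 36.3% of all genes, and 6 did not overlap, against 69.1%. These shares are near those of the whole table. With library totals in place of TMM scaling, 0 were higher and 3 lower in each comparison with GV. Of all tested genes, 1608 were then called higher and 4170 lower in IVM MII, and 1340 and 3123 in IVO MII. Comparisons with GV share the same 2 GV libraries. The median log2 change of the 9 genes was -0.44 in IVM MII over IVO MII, 0.56 in IVM MII over GV and 0.51 in IVO MII over GV, beside medians over all tested genes of 0, -0.10 and -0.16.

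**Figure D4:**
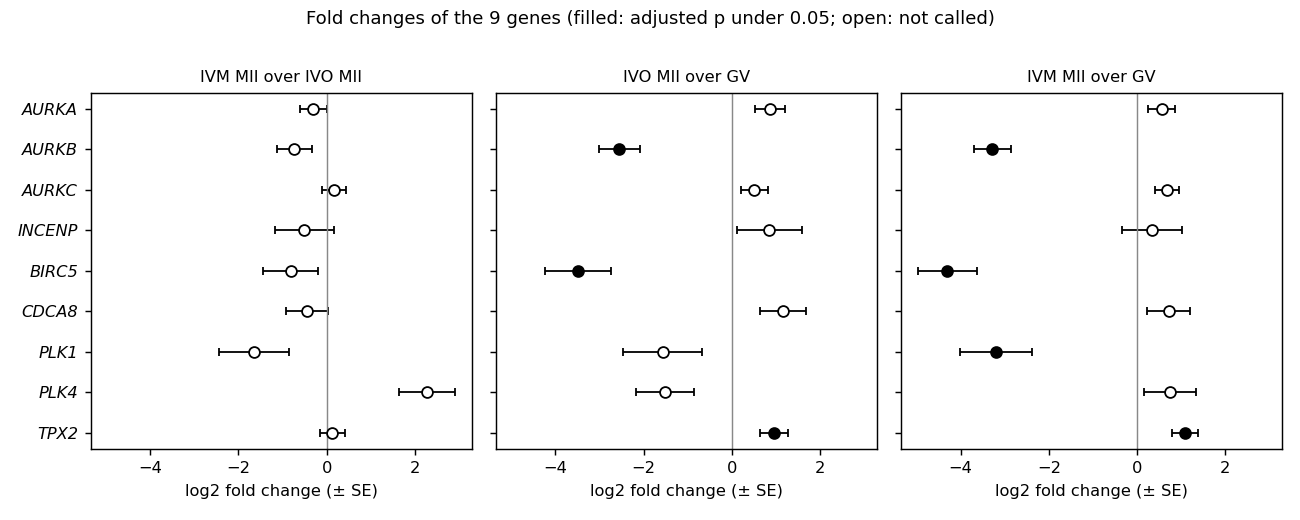
Log2 fold change with its SE for each of the 9 genes in the comparisons IVM MII over IVO MII, IVO MII over GV and IVM MII over GV, where filled points passed an adjusted p of 0.05. No point is filled for IVM MII over IVO MII, 3 are filled for IVO MII over GV and 4 for IVM MII over GV. BIRC5 is the lowest in both comparisons with GV. Over all tested genes, 1.47%, 28.1% and 36.3% passed in these comparisons, in that order.

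Several of these genes differed more inside an MII group than between the MII groups. IVM MII replicate 3 and IVO MII replicate 2 were the highest 2 of the 5 MII libraries for AURKA, INCENP, BIRC5, CDCA8 and PLK1, which makes 5 of the 9 genes. The same was true of 11 of 56 partner genes and of 18.2% of all tested genes. The highest IVM MII library exceeded the lowest 3.99 times for INCENP and 2.98 times for CDCA8, and the IVO MII libraries differed 6.02 times for BIRC5 and 3.21 times for INCENP. By contrast, the IVO MII libraries differed 1.05 times for AURKB and 1.09 times for TPX2. By its title IVO MII replicate 2 carries the number 2, but the file label behind it carries the number 3, as does that of IVM MII replicate 3, and the sources used here do not say what this number marks. The library pattern was noticed in the values and has no test.

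The partners through which these kinases act were read from 8 lists of 59 genes, all found in the table, of which 56 were tested. None of the 56 was called between IVM MII and IVO MII by edgeR (8 had an unadjusted p under 0.05), beside 1.47% of all genes. There limma voom called 0 and DESeq2 4, beside 497 and 2027 genes in all. In IVM MII 33 of the 56 were called against GV, 26 higher and 7 lower, beside 18.5% of all genes called higher and 17.8% lower. In IVO MII 21 were called against GV, 17 higher and 4 lower, beside 14.6% and 13.5% of all genes. The median log2 change of the partners was 0.92 in IVM MII over GV and 0.66 in IVO MII over GV, the same with genes at 0 counts in a group set at their bound. Using library totals, 14 rose and 9 fell in IVM MII, while 12 rose and 6 fell in IVO MII. Of all 16374 tested genes, 1608 were then called higher and 4170 lower in IVM MII, and 1340 and 3123 in IVO MII. Leaving out the first or the second GV library reduced the calls against GV, among the partners and among all genes alike. The median partner log2 changes were then 0.90 and 0.91 in IVM MII, and 0.62 and 0.69 in IVO MII.

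Of 8 partners of Aurora A, 6 rose in IVM MII and 4 in IVO MII relative to GV, and none was called lower. Over all genes, 18.5% were called higher in IVM MII and 14.6% in IVO MII. KIF11, the kinesin that pushes spindle poles apart, was at 243 ± 39.1 CPM in IVM MII and 199 ± 3.54 CPM in IVO MII, against 60.1 ± 2.79 CPM in GV (SD, n = 3, 2 and 2). Its log2 change was 2.02 in IVM MII (SE 0.31, adjusted p = 0.00227) and 1.73 in IVO MII (SE 0.32, adjusted p = 0.00580). HMMR, a spindle pole protein that works with TPX2, rose to 139 ± 26.1 CPM in IVM MII (adjusted p = 0.0225) and 157 ± 21.4 CPM in IVO MII (adjusted p = 0.0208), against 62.4 ± 7.83 CPM in GV. Neither HMMR call was kept with library totals, at log2 changes of 0.44 in IVM MII (adjusted p = 0.315) and 0.72 in IVO MII (adjusted p = 0.159). NEDD9, a scaffold that can activate Aurora A, had 26, 9 and 35 counts in the IVM MII libraries and 0 counts in every IVO MII and GV library, so it was at least 11.1-fold higher in IVM MII than in GV against a floor of 3 counts per library. NEDD9, counted among the 6 that rose, passed the filter on low counts through IVM MII alone, so there it could only come out higher.

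Both shugoshins, which protect centromeric cohesion and help place the passenger complex, rose in each MII group. SGO1, listed under its older symbol SGOL1, averaged 529 ± 79.2 CPM in IVM MII and 549 ± 37.3 CPM in IVO MII, against 140.6 ± 30.7 CPM in GV. SGO2, listed as SGOL2, averaged 148 ± 17.3 CPM in IVM MII and 167 ± 42.1 CPM in IVO MII, against 30.0 ± 7.07 CPM in GV, and its log2 change was 2.30 in IVM MII (adjusted p = 0.00231) and 2.48 in IVO MII (adjusted p = 0.00298). In this recruitment list 3 of 6 genes rose in IVM MII and 2 of 6 in IVO MII. Among 11 genes of the midzone and of Aurora B substrates, 5 rose in IVM MII and 3 in IVO MII, and none was called lower. Of all genes, 18.5% were called higher in IVM MII and 14.6% in IVO MII, and 36.3% and 28.1% were called in either direction. KIF20B, a kinesin of the midzone, rose by 2.36 in IVM MII (SE 0.31) and 2.45 in IVO MII (SE 0.32). ECT2, the exchange factor that starts the cytokinetic furrow, was at 863 ± 199 CPM in IVM MII and 464 ± 110 CPM in IVO MII, against 111 ± 16.2 CPM in GV. The ECT2 change was 2.96 (adjusted p = 0.00150) in IVM MII and 2.06 (adjusted p = 0.00505) in IVO MII. Without GV replicate 1 the IVO MII calls of SGO1 (adjusted p = 0.0604) and ECT2 (0.0592) were lost.

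The PLK1 docking partners and substrates went both ways, 4 of 8 higher and 3 lower in IVM MII, and 1 higher and 2 lower in IVO MII. Over all genes, 18.5% were called higher and 17.8% lower in IVM MII, and 14.6% and 13.5% in IVO MII. FBXO43, also called EMI2, which holds the egg at metaphase II by blocking the anaphase-promoting complex, was at 58.1, 53.0 and 63.6 CPM in IVM MII and at 113 and 70.6 CPM in IVO MII, against 5.63 and 8.25 CPM in GV. It rose by 3.07 in IVM MII (SE 0.40, adjusted p = 0.00164) and by 3.72 in IVO MII (SE 0.43, adjusted p = 0.00210). CDC25B, a phosphatase that activates CDK1 and is needed for meiotic resumption in the mouse, was at 3.63 ± 1.95 CPM in IVM MII and 3.21 ± 2.01 CPM in IVO MII, against 25.9 ± 5.13 CPM in GV. CDC25B fell by 2.83 in IVM MII (adjusted p = 0.00789) and by 3.01 in IVO MII (adjusted p = 0.0150).

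Centriole genes around PLK4 were higher in MII, with 4 of 6 called higher in each group and none called lower. The share of all genes called higher was 18.5% in IVM MII and 14.6% in IVO MII. SASS6, which forms the centriole cartwheel, rose by 2.95 in IVM MII (SE 0.32, adjusted p = 0.00127) and by 3.21 in IVO MII (SE 0.33, adjusted p = 0.00210). STIL, the substrate through which PLK4 recruits SASS6, averaged 142 ± 24.8 CPM in IVM MII and 140.2 ± 57.1 CPM in IVO MII, against 22.7 ± 4.87 CPM in GV. PLK4 itself thus did not pass in either comparison in which SASS6 and STIL rose. Neither of the tested polo kinases outside the 9, PLK2 and PLK3, passed (adjusted p 0.114 to 0.859 against GV).

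In the ubiquitin ligase list, 3 of 6 genes fell in IVM MII and 2 in IVO MII, beside 17.8% and 13.5% of all genes, and none was called higher. KLHL13, with 3, 25 and 0 counts in IVM MII and 0 in the other groups, did not pass the filter and was not tested. CUL3, the cullin of this list, chosen here after its values were seen, missed the threshold in IVM MII over GV with libraries that did not overlap (70.5 ± 40.8 CPM in IVM MII, 19.6 ± 6.30 CPM in GV, log2 difference 1.85, adjusted p = 0.0502). The lowest IVM MII library, at 25.4 CPM, was barely above GV replicate 2, at 24.0 CPM, and 69.1% of all genes did not overlap there. PPP1CA, of the phosphatase list, also narrowly missed there in the other direction (log2 difference -2.83, adjusted p = 0.0505 by edgeR). FZR1, the activator that directs the anaphase-promoting complex to Aurora A and PLK1, was at 1.02, 0.845 and 1.24 CPM in IVM MII and at 0.612 and 0.810 CPM in IVO MII, against 5.66 and 6.39 CPM in GV, with changes of -2.53 (adjusted p = 0.0181) and -3.07 (adjusted p = 0.0206). KLHL22, an adaptor of cullin 3 that acts on PLK1, had 1 count over the IVM MII libraries and 0 over the IVO MII libraries, against 79 over the GV libraries. KLHL22 passed the filter on low counts through GV alone, so against GV it could only come out lower. It was at least 9.07-fold lower in IVO MII than in GV, and the GV to IVM MII ratio was 84.1 (95% exact counting interval 14.7 to 3365). KLHL21, an adaptor that acts on Aurora B, had 2 counts over IVM MII and 67 over GV, a GV to IVM MII ratio of 35.7 (interval 9.50 to 301). These intervals cover counting error only.

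Among 9 phosphatase genes, 4 rose and 1 fell in IVM MII, and 3 rose in IVO MII. Beside them, 18.5% of all genes were called higher and 17.8% lower in IVM MII, and 14.6% higher in IVO MII. PPP1CC, a catalytic subunit of the phosphatase that opposes Aurora B, was at 669, 488 and 313 CPM in IVM MII and 1029 and 564 CPM in IVO MII, against 43.1 and 57.7 CPM in GV. The rise was 3.28 in IVM MII (SE 0.47, adjusted p = 0.00192) and 3.98 in IVO MII (SE 0.50, adjusted p = 0.00211). PPP1R12A, the subunit that brings this phosphatase to PLK1, rose by 2.49 in IVM MII (SE 0.29) and by 2.91 in IVO MII (SE 0.31). Of the partners named so far, calls in IVO MII over GV were also lost without GV replicate 1 for KIF11, HMMR, CDC25B, KLHL22 and FZR1 (adjusted p 0.0734 to 0.250), without GV replicate 2 for the same 5 genes (0.0520 to 0.201), without IVO MII replicate 1 for CDC25B, KLHL22 and FZR1 (0.0653 to 0.0901) and without IVO MII replicate 2 for HMMR and KLHL22 (0.0584 and 0.0838). Calls in IVM MII over GV were lost without GV replicate 1 for HMMR, NEDD9, CDC25B, KLHL22, KLHL21 and FZR1 (0.0632 to 0.351), without GV replicate 2 for the same genes other than CDC25B (0.128 to 0.189), without IVM MII replicate 1 for HMMR, KLHL22 and KLHL21 (0.0551 to 0.0749), without IVM MII replicate 2 for FZR1 (0.0515) and without IVM MII replicate 3 for KLHL21 (0.0602).

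**Figure D5:**
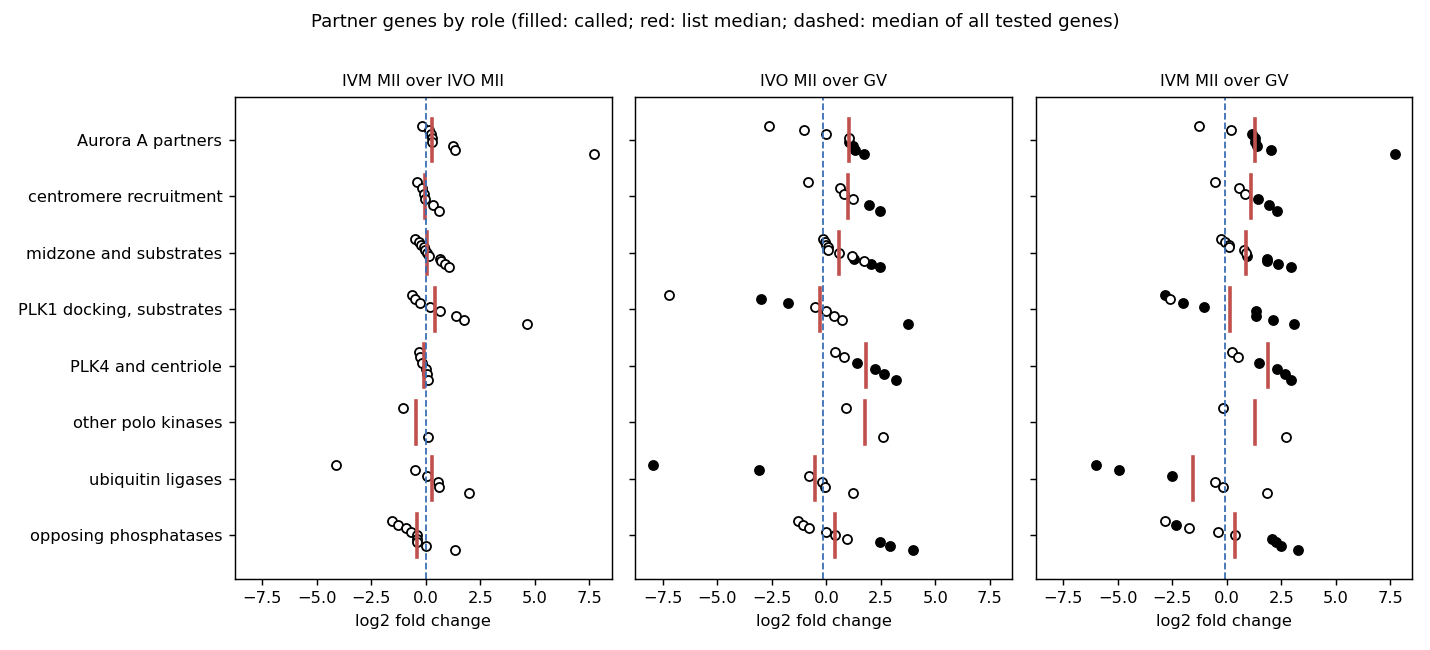
Log2 fold changes of the tested partner genes by list in the 3 comparisons, where filled points passed an adjusted p of 0.05, red bars mark list medians and the dashed line marks the median of all tested genes. No point is filled between IVM MII and IVO MII. The centriole list has 4 filled points on the higher side in each comparison with GV, and the ubiquitin ligase list has filled points on the lower side only. Over all tested genes, 18.5% were called higher and 17.8% lower in IVM MII over GV, and 14.6% and 13.5% in IVO MII over GV.

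The genes whose profile over the 7 libraries was most like each of the 9 were taken by Pearson's r of log2(CPM + 1), among 4832 genes with a symbol and a mean of at least 20 CPM (4833 for PLK4). These correlations are descriptions over 7 libraries that share their stages and sequencing folders. AURKB was closest to OLFML1 (r = 0.996), BIRC5 to DNAJB1 (0.995) and DDX39A (0.995), and PLK1 to HSPA4 (0.996). These 4 genes, like the kinases and survivin they followed, were all higher in the GV libraries than in any MII library. That likeness follows from how they were picked. AURKA was closest to ZNF236 (0.991), CDCA8 to RIOK3 (0.994), INCENP to APOC4 (0.979), AURKC to DNAAF2 (0.990), TPX2 to FBXL7 (0.996) and PLK4 to ASNSD1 (0.982). By the same selection, ZNF236 was like AURKA highest in IVO MII replicate 2, at 41.1 CPM, and IVM MII replicate 3, at 32.3 CPM.

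The table gives each gene a position on an assembly that it does not name. AURKA lies on chromosome 10 from 88208557 to 88231688 on the minus strand, and TPX2 on the same chromosome from 63054449 to 63123706 on the plus strand. AURKB lies on chromosome 16 from 8322532 to 8328994 (minus strand), as does BIRC5 from 75592407 to 75605511 (plus strand). AURKC is placed on chromosome 19 from 57886367 to 57891804 (plus strand), INCENP on chromosome 14 from 12095078 to 12122712 (minus strand) and PLK4 on chromosome 5 from 126821568 to 126839888 (plus strand). CDCA8, on chromosome 19 from 20046459 to 20064260, and PLK1, on chromosome 13 from 22852592 to 22865061, both on the plus strand, carry another chromosome number in the RefSeq annotation T2T-MFA8v1.1. The listed spans of INCENP, BIRC5 and PLK4 overlap those of ME3, CMTM5 and GATB, in that order, with 0 shared exon bases.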

How the data were processed

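RNA was primed on poly(A), switched at its 5′ end, amplified as full-length cDNA, tagmented and read in pairs, per the labels' protocols. Such priming counts a transcript by its tail as well as its number. The authors deposited raw read counts per gene, unnormalized, with exon positions and exon lengths. The submitters' processing notes name featureCounts 2.0.1, with Bowtie2 2.4.5, Trim Galore 0.6.7, SAMtools 1.15.1 and DESeq2 (no version). Bowtie2 does not split reads over introns. Not given in the sources used here were the build, the strand setting and the treatment of reads matching several places.

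From the counts, 10 broken lines (rows of MACF1, NEB and TTN) were left out. All 7 libraries entered 1 edgeR 4.0.16 quasi-likelihood fit (glmQLFit, glmQLFTest, two-sided) with TMM scaling and filterByExpr in R 4.3.3, with Benjamini-Hochberg adjustment over 16374 genes and calls at an adjusted p under 0.05. SE is the log2 fold change divided by the square root of F. A floor of 3 counts per library equals 0.0907 to 0.161 CPM. The fits were also run on simulated counts whose spread was that fitted by edgeR. That run checked the size of fold changes set in advance, and it cannot show that the calls hold in these libraries. Python 3.11.15 with pandas 2.3.3 made the tables. Alternatives were RLE and upper quartile scaling, no filter, DESeq2 1.42.0, limma voom 3.58.1, newer edgeR settings, a replicate block by title or file number, the compared groups alone, and leaving out each library. By title only IVM MII has a replicate 3, so the block by title fits that library alone. That block and leaving out this library are therefore not independent. The 9 genes and the partner and marker lists were chosen with earlier results of these data known. The partners named are, per list and comparison, at most 2 called genes with the largest log2 fold change. The remaining list genes are given as counts.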

Additional observations from a re-analysis of the deposited data

How the results depend on the processing

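Of 27 fold changes of the 9 genes, 18 kept their direction under every alternative, as did all 30 of the named partners. Calls of BIRC5 against GV and of AURKB in IVM MII against GV were kept throughout. Between IVM MII and IVO MII the 0 calls among the 9 genes became 1 with DESeq2 and 1 with the replicate block, and 0 to 1 without 1 library. The 0 partner calls became 4 with DESeq2, 3 with the replicate block and 1 with the block by file number (below), and 0 to 2 without 1 library. In IVO MII against GV the 3 calls ran from 1 to 4 without 1 library (1 without GV replicate 1), and the 21 partner calls from 8 to 26. In IVM MII against GV the 4 calls ran from 2 to 4 (2 without IVM MII replicate 1 or GV replicate 1), and the 33 partner calls from 12 to 35. Directions that turned were those of INCENP (log2 change 0.49 without IVO MII replicate 2) and BIRC5 (0.91 without IVO MII replicate 2) in IVM MII over IVO MII, with lowest values without 1 library of -1.37 and -1.60. TPX2 in the same comparison was -0.000886 with the replicate block and -0.018 to 0.23 without 1 library. INCENP ran from -0.23 to 1.45 in IVO MII over GV and from -0.53 to 0.69 in IVM MII over GV without 1 library, and with the replicate block it was -0.40 in IVM MII over GV, or -0.48 there and -0.22 in IVO MII over GV with the block by file number. With library totals unscaled, chosen after seeing the data, the median of all genes shifted by -0.70 in IVM MII over GV and -0.62 in IVO MII over GV. That turned AURKC in IVO MII (-0.10) and AURKA (-0.15), AURKC (-0.037), INCENP (-0.33) and PLK4 (-0.012) in IVM MII over GV.

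Deviations of libraries with the same title number from group means correlated at -0.131 to 0.185. In groups of 2 these mirror each other, so a shared source was not tested. By file label IVO MII replicate 2 is number 3 and correlated at 0.240 with IVM MII replicate 3, beside 0.185 for replicates 1. These are only 2 pairs, and same-numbered pairs with GV ran from -0.131 to 0.0635. With a replicate block by file number, chosen after seeing the data, PLK1 passed in IVO MII over GV (-3.10, adjusted p = 0.00177), TPX2 did not (0.81, adjusted p = 0.105), PLK4 did not between IVM MII and IVO MII (adjusted p = 0.0978), and KLHL22 in both comparisons with GV and NEDD9 and KLHL21 in IVM MII lost their calls (0.0870 to 0.220). With the block by title, which sets IVM MII replicate 3 aside, PLK4 passed between IVM MII and IVO MII (2.57, adjusted p = 0.0422). There CDCA8 passed in IVO MII over GV (1.16, adjusted p = 0.0459). TPX2 lost its IVM MII (0.0514) and IVO MII (0.0576) calls over GV. HMMR, FZR1, NEDD9, KLHL22 and KLHL21 also lost their IVM MII calls (0.0507 to 0.185) and KLHL22 its IVO MII call (0.0943). A crossed block over the IVO MII and GV libraries, chosen after seeing the data, called 6 of the 9 genes, beside 5548 of 15749 genes tested there. Other settings that moved a call were limma voom for AURKA (adjusted p = 0.0360) and library totals for PLK4 (-2.15, adjusted p = 0.0378) and HMMR (0.72, adjusted p = 0.159), all in IVO MII over GV. Over all genes, the 241 calls between IVM MII and IVO MII were 731 with no filter, 2027 with DESeq2, 497 with limma voom, 774 with newer edgeR settings, 1238 with the replicate block, 832 with the block by file number, 54 with the compared groups alone and 0 to 1277 without 1 library. The share called higher there was 60.6%, but 50.4% with upper quartile scaling. The 4596 calls in IVO MII and the 5949 in IVM MII against GV ran from 1484 to 5517 and from 2110 to 6716 without 1 library. With library totals 27.8% of calls were higher in IVM MII and 30.0% in IVO MII against GV, beside 51.1% and 52.0% with TMM. Where a fit left a group with 1 library, that library was assumed to vary like the others. The cause of these changes was not tested.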
